A study of Mus musculus with 24 samples.

Results

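Glutathione S-transferases, UDP-glucuronosyltransferases and sulfotransferases couple glutathione, glucuronic acid or sulfate to drugs, hormones, bile acids, bilirubin and products of lipid oxidation, and the liver is a main site of this second phase of detoxification. The genes were taken by name: every array probe whose gene name begins with Gsta, Gstm, Gstp, Gstt, Gsto, Gstk, Mgst, Ugt1a, Ugt2a, Ugt2b, Ugt3a or Sult. This gave 55 of the 37074 gene names on the array, read by 79 of its 56605 probes. Of the 79 probes, 60 passed the filter on dim signal, for 44 genes.

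RNA had been measured in the liver of 24 male C57Bl6J mice of the third generation of lineages raised on supplemented chow, with 1 single-colour Agilent array per mouse. The reference group (n = 9) came from the control fatty acid lineage, which received high-oleic sunflower oil, and ate the standard low-fat diet. The HFoleic group (n = 8) came from the same lineage and ate an obesogenic diet rich in fat and sucrose. The HFepa group (n = 7) ate that obesogenic diet and came from the n-3 PUFA lineage, which received fish oil rich in eicosapentaenoic acid. All were killed while fasting. No low-fat group of the n-3 lineage was measured here, so diet and lineage cannot be told apart in HFepa against reference.

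The arrays had 50.9 to 60.8% of probes well above background and no saturated spot. All 8 hepatocyte markers looked at were well above background on 24 of 24 arrays. Reference replicate 5 stood apart, with a mean correlation of 0.977 to the other reference arrays, and many of the differences below are also given without it. In whole liver, fewer cells of a type and less RNA per cell cannot be told apart. Levels below are normalized log2 signals of a probe, which are not compared between probes, and differences are differences of mean log2 signal.

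Several of these probes read more than 1 gene, and the sequences show which part of a transcript a value comes from. The Ugt1a genes each have a first exon of their own and share the exons that follow, so a probe in the shared part sums over the family. Of the 60 probes that passed, 6 list transcripts of more than 1 gene. The probe that carries the Ugt1a result (A_55_P1962404, chr1:90115493-90115552 in mm9, the build of the scanner files) lists Ugt1a6a, Ugt1a6b, Ugt1a7c and Ugt1a10, whereas a probe far upstream (A_55_P2143765, chr1:90004249-90004308) reads the first exon of Ugt1a6b and another (A_55_P2178800, chr1:89952780-89952839) that of Ugt1a10 and Ugt1a9. The first-exon pair is shown with capitals for the 32 bases that are identical in their best alignment without gaps (54 bases), followed by the first 30 bases of the shared-part probe and by a second probe named Ugt1a6b near it (A_55_P2742311, chr1:90114900-90114959), which have no capitals.
Ugt1a6b first exon: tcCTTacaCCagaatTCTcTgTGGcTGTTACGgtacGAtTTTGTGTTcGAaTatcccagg
Ugt1a10 first exon: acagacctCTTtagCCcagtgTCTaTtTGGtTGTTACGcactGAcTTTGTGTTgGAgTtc
Ugt1a shared part: accaaagtatgttctaaggcaagtacatct
Ugt1a6b second probe: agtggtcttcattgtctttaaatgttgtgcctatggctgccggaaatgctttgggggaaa

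Gsta3, an alpha-class glutathione S-transferase, was read by 3 probes on chromosome 1, whose first 30 bases are shown because all 3 carry the main result. A_51_P503625 (chr1:21255189-21255248) and A_55_P1961423 (chr1:21255043-21255102) lie close together, and A_55_P2717678 (chr1:21246334-21246393) lies upstream of both. The close pair match Gsta3 in the RefSeq gene list, whereas the upstream probe matched no gene there and is Gsta3 by array name only.
Gsta3 A_51_P503625: tgacgaggaacggccggatgctctctagtt
Gsta3 A_55_P1961423: attcaggcaactataagtacatagccccca
Gsta3 A_55_P2717678: ctggcctaaggcaacaacataataggtttt

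The HFoleic mice had more signal than the reference mice from all 3 probes named Gsta3, of which the upstream one matched no RefSeq transcript. The same held for 1 of 3 Ugt3a2 probes and for 1 of the probes that list several Ugt1a genes. These signals were higher by 1.24 to 2.02 times, and no conjugation enzyme passed the test in the other direction. Of the 60 probes, 5 (8.33%) had a limma adjusted p under 0.05, all higher in HFoleic, against 7.23% of the 30003 probes tested and 4.05% counted as higher only. The share of called members was thus near that of all probes. At an unadjusted p under 0.05 there were 18 of 60, 14 higher and 4 lower, against 21.1% of all probes. The median difference over the 60 probes was 0.08, against -0.00072 over all probes.

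Gsta3 is best known for its abundance in liver and its conjugation of aflatoxin epoxide in mice. With probe A_51_P503625 the lowest, median and highest signals were 16.15, 16.69 and 16.94 in reference, 16.83, 17.09 and 17.19 in HFoleic, and 16.57, 16.90 and 17.26 in HFepa. HFoleic mice lay above the reference mean in 8 of 8 cases and above every reference mouse in 7. The difference was 0.41 (SE 0.10, adjusted p = 0.0122 by limma), a fold of 1.33. The neighbouring probe A_55_P1961423 gave 0.49 (adjusted p = 0.00403), and without reference replicate 5 the 2 differences were 0.35 (adjusted p = 0.0176) and 0.43 (adjusted p = 0.00565). On the 3 slides the first probe differed by 0.70, 0.19 and 0.30.

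The upstream Gsta3 probe A_55_P2717678 had lowest, median and highest signals of 7.16, 8.77 and 9.96 in reference, 8.95, 9.89 and 10.51 in HFoleic, and 9.42, 9.96 and 10.71 in HFepa. The groups overlapped, although 8 of 8 HFoleic and 7 of 7 HFepa mice lay above the reference mean. The HFoleic difference was 1.01 (SE 0.29, limma adjusted p = 0.0352), which stood at 0.80 (adjusted p = 0.0499) without reference replicate 5. It lost the call when any of 9 other single mice was left out, with an adjusted p of up to 0.0787, and under 3 of 12 alternatives, with an adjusted p of up to 0.102.

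**Figure D1:**
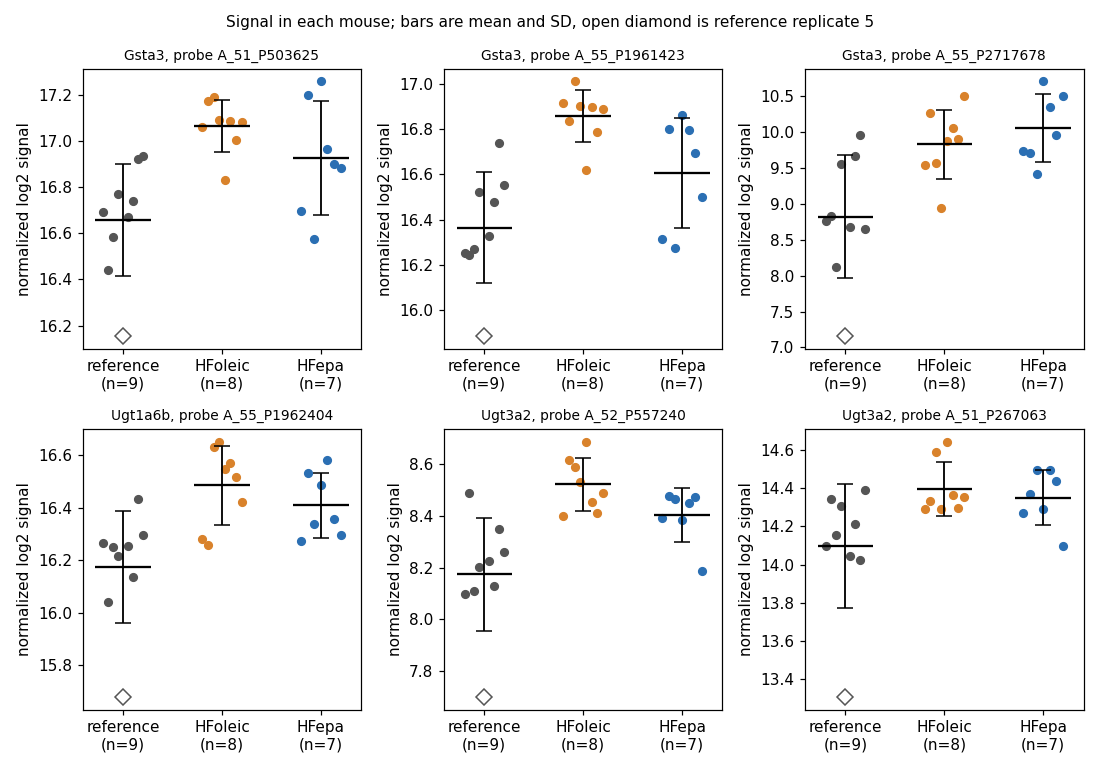
Normalized log2 signal (vertical axis) of each mouse by group (horizontal axis) for 3 Gsta3 probes, the shared-part Ugt1a6b probe and 2 Ugt3a2 probes, with the mean and SD of each group in black. Reference replicate 5 (open diamond) is the lowest reference mouse in all 6 panels, and 7 of 8 HFoleic mice lie above every reference mouse for the first 2 Gsta3 probes.

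UDP-glucuronosyltransferases attach glucuronic acid, and the Ugt1a family includes the enzymes of bilirubin and phenol conjugation. The shared-part Ugt1a probe had lowest, median and highest signals of 15.68, 16.25 and 16.43 in reference, 16.26, 16.53 and 16.65 in HFoleic, and 16.27, 16.36 and 16.58 in HFepa. HFoleic exceeded reference by 0.31 (SE 0.08, limma adjusted p = 0.0216), and 5 of 8 HFoleic mice lay above every reference mouse. The difference was 0.25 (adjusted p = 0.0255) without reference replicate 5. The call was lost with processed signals scaled to the 75th percentile, with median centring in place of quantile normalization and with the methods' t-test (adjusted p up to 0.173). The first-exon Ugt1a6b probe differed by 0.23 (limma adjusted p = 0.318) and the second probe named Ugt1a6b by 0.24 (limma adjusted p = 0.151). That second probe lies near the shared-part probe and far from the first-exon probe, and it was not called. Whether it reads Ugt1a6b alone was not tested. The Ugt1a10 first-exon probe differed by -0.33 (limma adjusted p = 0.533) and the probe named Ugt1a6a by 0.16 (limma adjusted p = 0.502). Which Ugt1a transcript carried the difference was therefore not resolved. No probe bore the name of Ugt1a1, the bilirubin enzyme, but the probe named Ugt1a6a lists transcripts of Ugt1a1, Ugt1a6a, Ugt1a7c and Ugt1a10. That probe (chr1:90116514-90116573) lies downstream of the called probe and, like it, lists several Ugt1a genes, but it was not called.

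Ugt3a2, of a small family that uses other sugars than glucuronic acid, was called with one of its 3 probes. That probe (A_52_P557240) has file coordinates on chromosome 15 from 9280929 to 9291221, a span of 10293 bases for a probe of 60 bases, so it crosses an exon junction.
Ugt3a2 A_52_P557240: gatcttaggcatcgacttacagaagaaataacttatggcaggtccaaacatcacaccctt
Its lowest, median and highest signals were 7.70, 8.20 and 8.49 in reference, 8.40, 8.51 and 8.68 in HFoleic, and 8.19, 8.45 and 8.48 in HFepa. The HFoleic difference was 0.35 (SE 0.08, limma adjusted p = 0.00667) and 0.29 (adjusted p = 0.00635) without reference replicate 5. The brightest Ugt3a2 probe (A_51_P267063) gave 0.30 (adjusted p = 0.095) and the dimmest (A_66_P104175) 0.12 (adjusted p = 0.544). Ugt3a1, the other member of the family, differed by 0.33 (adjusted p = 0.0685), and by 0.21 with an adjusted p of 0.0257 once reference replicate 5 was left out.

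The remaining glutathione S-transferases did not pass the test in HFoleic against reference. Gstp1 and Gstp2, the pi class, gave -0.71 (adjusted p = 0.0575) and -0.23 (adjusted p = 0.138) by limma. The Gstp1 probe lists transcripts of both genes. Its lowest, median and highest signals were 14.28, 14.60 and 15.25 in reference, 13.52, 13.92 and 14.97 in HFoleic, and 13.38, 14.63 and 15.29 in HFepa, so 7 of 8 HFoleic mice lay below every reference mouse. Without reference replicate 5 the Gstp1 difference was -0.77 (adjusted p = 0.0475), which passes the threshold. Gstt1, which acts on small halogenated molecules, gave 0.39 (adjusted p = 0.0555), and Gstk1, a mitochondrial and peroxisomal enzyme, 0.27 (adjusted p = 0.0674). Mgst3 gave 0.52 (adjusted p = 0.0789) and Mgst2 -0.52 (adjusted p = 0.114), the latter well above background on 14 of 24 arrays. The 7 mu-class genes ranged from -0.24 for Gstm2 to 0.09 for Gstm1, whose brightest probe has file coordinates on chromosome 5 while its other probe lies on chromosome 3 among the other Gstm probes. Without reference replicate 5 they ranged from -0.09 for Gstm2 to 0.19 for Gstm1, and 5 of the 7 rather than 3 were on the higher side. Gsta4, which conjugates the lipid peroxidation product hydroxynonenal, gave 0.37 (adjusted p = 0.336), Gsto1 -0.08 (adjusted p = 0.535) and Mgst1 -0.02 (adjusted p = 0.807). By brightest probe, 10 of 20 transferase genes were on the higher side and 10 on the lower, and 13 were on the higher side with median centring in place of quantile normalization.

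Among 14 glucuronosyltransferase genes, 10 were on the higher side in HFoleic and 13 in HFepa, counts that were the same under each of 4 other scalings. Their median differences were 0.15 and 0.16, against -0.00072 and 0.0047 over all 30003 probes. Some of their probes list more than 1 of these genes, so the 14 are not separate readouts. In HFepa against reference none of their 18 probes was called. Ugt2b genes, which act on steroids and bile acids, ranged from -0.25 for Ugt2b1 (adjusted p = 0.446) to 0.32 for Ugt2b34 (adjusted p = 0.0751), and Ugt2b1 gave -0.38 (adjusted p = 0.101) without reference replicate 5. Ugt2b38, the brightest of them, gave 0.13 (adjusted p = 0.526), Ugt2b5 0.08 (adjusted p = 0.737) and Ugt2a3 -0.07 (adjusted p = 0.684).

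Sulfotransferase differences ranged from -1.05 to 0.71 by brightest probe, and none passed. Sult1e1, the estrogen sulfotransferase, gave -1.05 (SE 0.48, limma adjusted p = 0.203) in HFoleic against reference. Its signals ran from 5.64 to 10.45 in reference, with a median of 6.29, from 5.38 to 6.33 in HFoleic and from 5.87 to 6.41 in HFepa. Reference replicates 2 and 5, at 10.45 and 9.13, stood well above the other reference mice, and without replicate 5 the difference was -0.79 (adjusted p = 0.322). Sult2a8, which sulfates bile acids, gave 0.66 (adjusted p = 0.401), and 0.16 (adjusted p = 0.274) without reference replicate 5. Sult2a7 gave 0.66 (adjusted p = 0.211), and 0.41 (adjusted p = 0.330) without that mouse. Sult1c2 gave 0.71 (adjusted p = 0.0954), Sult1b1 0.40 (adjusted p = 0.333), Sult5a1 0.30 (adjusted p = 0.602) and Sult1a1, the phenol sulfotransferase, -0.17 (adjusted p = 0.521). Of 28 sulfotransferase probes, 14 did not pass the filter: all 8 for Sult2a1 to Sult2a6, both for Sult3a1, and 1 each for Sult2b1, Sult4a1, Sult5a1 and Sult6b1, none well above background on more than 6 of 24 arrays. The other 5 probes below the filter were those of Gsto2 (both), Gstt4, and 1 each of Mgst3 and Gstm7.

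**Figure D2:**
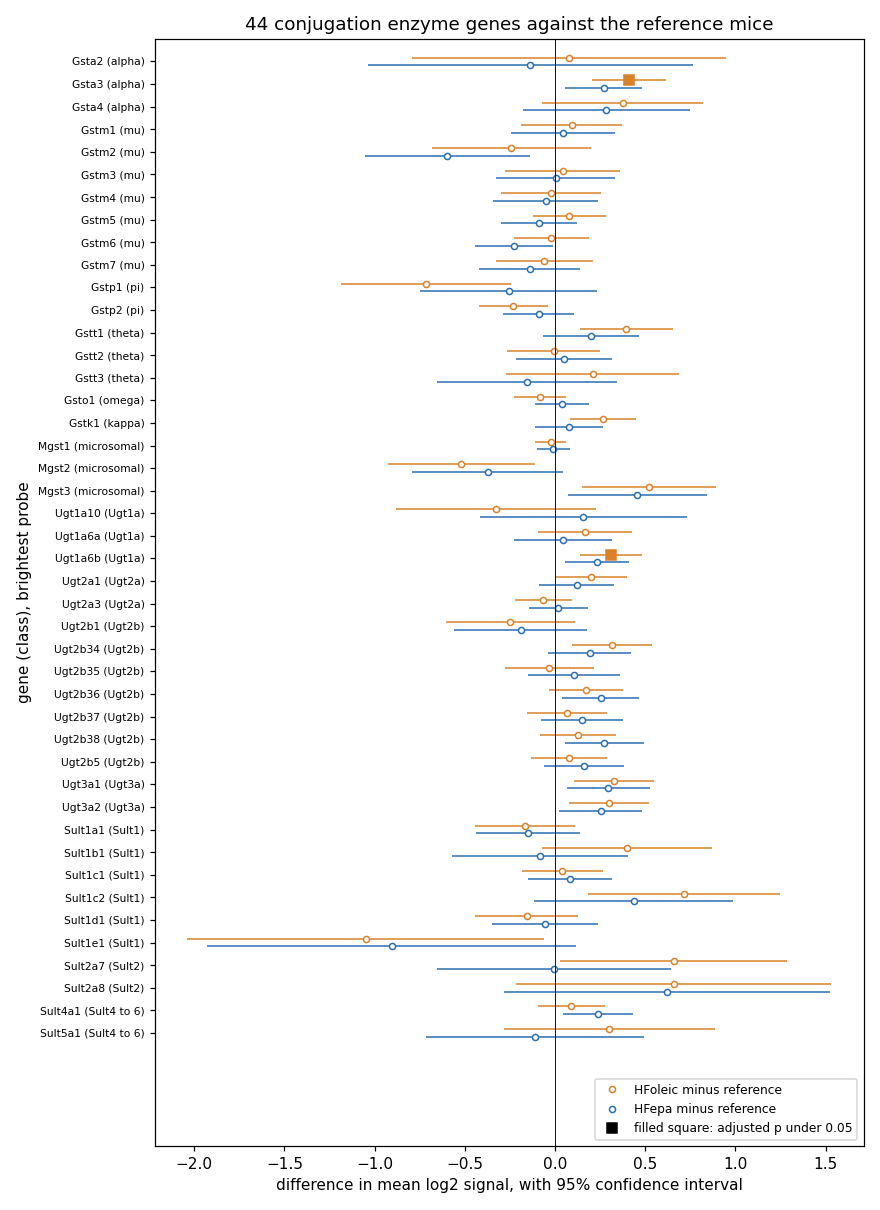
Difference in mean log2 signal from the reference mice (horizontal axis, with 95% confidence interval) of the brightest probe of 44 genes (vertical axis), for HFoleic (orange) and HFepa (blue). Gsta3 and the probe named Ugt1a6b are the filled squares, both in HFoleic, and most intervals cross 0.

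In HFepa against reference no member was called, against 0.393% of all probes, and 14 of 60 (23.3%) had an unadjusted limma p under 0.05, 12 higher and 2 lower, against 13.5% of all probes. The methods' t-test called 0, with 10 of 60 members at an unadjusted p under 0.05, against 3472 of 30003 probes. Under processed-signal scaling to the 75th percentile 7 of 60 members and 3924 of 30003 probes had a limma p under 0.05, and with median centring 8 of 60 and 3866 of 30003, so the members' share was then near that of all probes. The upstream Gsta3 probe came nearest, with 1.24 (adjusted p = 0.0628). Gsta3 by its brightest probe gave 0.27 (adjusted p = 0.238), the shared-part Ugt1a probe 0.23 (adjusted p = 0.212), Ugt3a1 0.29 (adjusted p = 0.232; 0.18 without reference replicate 5) and Ugt2b38 0.27 (adjusted p = 0.248). Gstm2 gave -0.60 (adjusted p = 0.220), from signals of 11.99 to 13.90 (median 12.64) in reference and 11.60 to 12.69 (median 12.08) in HFepa, which overlapped. It gave -0.44 without reference replicate 5.

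Between the 2 groups on the obesogenic diet no member was called, nor any of the 30003 probes (0%). By limma 1 of 60 members (1.67%) had an unadjusted p under 0.05, against 9.7% of all probes. By the methods' t-test it was 4 of 60, against 3484 of 30003 probes. The limma count was 12 of 60 with array weights (4371 of 30003 probes), 9 without HFoleic replicate 3 (3109 of 30003) and 7 without HFepa replicate 4 (3685 of 30003). The 1 probe in the fit over all arrays was Gsta3 A_55_P1961423, lower in HFepa by 0.25 (95% confidence interval -0.47 to -0.03, adjusted p = 0.435). The brightest Gsta3 probe differed by -0.14 (-0.36 to 0.08) and the upstream one by 0.22 (-0.42 to 0.87). Sult2a7 differed by -0.66 (-1.33 to 0.01), Sult1b1 by -0.48 (-0.98 to 0.02), Gstp1 by 0.46 (-0.05 to 0.96), Gstm6 by -0.21 (-0.43 to 0.01) and Gstk1 by -0.19 (-0.38 to 0.01). Both comparisons with reference share the same 9 reference arrays.

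Reference replicate 5 differed from the other 8 reference mice across these enzymes. Of the 44 genes by brightest probe, 26 were outside the range of the remaining 8 mice in it, against 3 to 13 in each of the others. The share of all probes outside that range was not counted, so whether this is particular to these enzymes was not tested. Over the kept probes as a whole this mouse also stood apart, with a mean correlation of 0.977 against 0.987 to 0.991 for the other reference mice. Gsta2, named here after its values were seen and known as an inducible alpha-class enzyme, was at 15.01 against 11.70 to 12.62, a fold of 9.13 over the median. Gstm1, Gstm2, Gstm3, Gstm4 and Gsta4 were also above the remaining range, by 1.77 to 2.56 times their medians. Gstm5 and Ugt1a10 were above it by less, 1.31 and 1.45 times. Sult2a8 was at 11.22 against 15.43 to 15.95, a fold of 22.6 below the median. Sult2a7, Ugt2b1, Ugt3a1, Ugt3a2 and Gsta3, among others, were below the range as well. With this mouse, Gsta2 gave 0.08 in HFoleic against reference (adjusted p = 0.947), and without it 0.41 (adjusted p = 0.518).

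**Figure D3:**
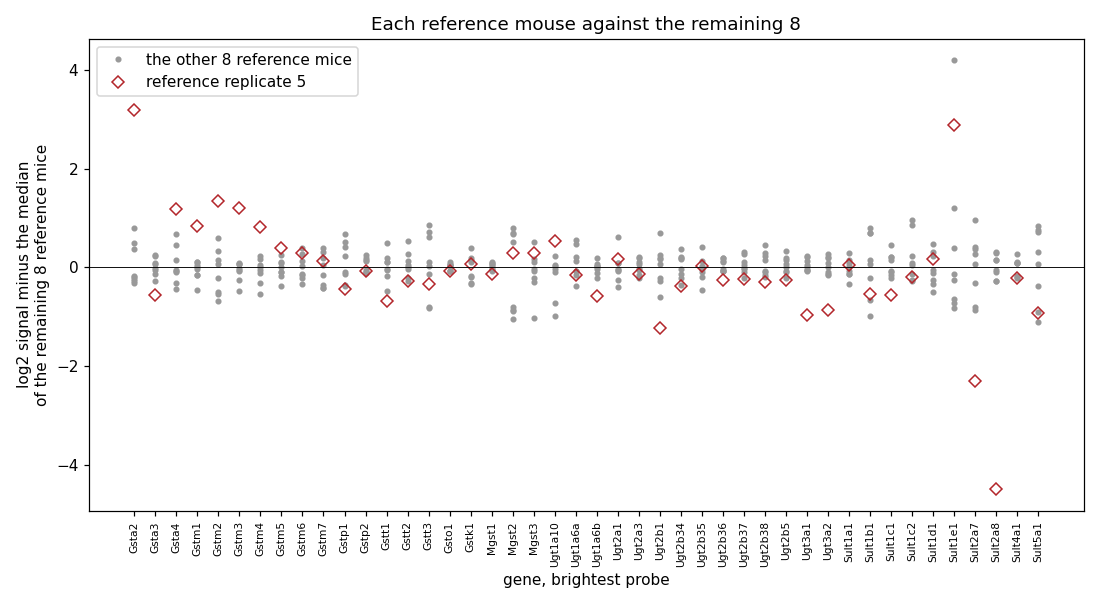
Log2 signal of each reference mouse minus the median of the remaining 8 (vertical axis) for 44 genes (horizontal axis, brightest probe). Reference replicate 5 (red diamonds) is highest for Gsta2, at 3.19, and lowest for Sult2a8, at -4.50. The grey point at 4.20 for Sult1e1 is reference replicate 2.

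Other genes of the same pathways came from 6 lists of 56 genes, of which 54 were tested. In HFoleic against reference 7 of the 54 genes, each read by its brightest probe, were called, 5 higher and 2 lower. Their median difference over the 54 was 0.03. For all 30003 probes tested, of any brightness, the share called was 7.23%. None of the 54 genes was called in HFepa against reference or in HFepa against HFoleic. In glutathione synthesis and turnover, 3 of 13 passed by limma: Gclm, the modifier subunit of the enzyme that limits glutathione synthesis, rose by 0.26 (adjusted p = 0.0403), Chac1, which breaks glutathione down, rose by 1.26 (adjusted p = 0.00535), and Cth, which makes cysteine, fell by 0.80 (adjusted p = 0.00224). The catalytic subunit Gclc gave 0.47 (adjusted p = 0.0719). In glucuronate supply 2 of 4 passed. Ugp2, which makes UDP-glucose, rose by 0.37 (adjusted p = 0.0227), and Gusb, which removes glucuronate in lysosomes, fell by 0.38 (adjusted p = 0.0113). In sulfate donor supply 1 of 9 passed: Papss1, a synthase of the sulfate donor PAPS, rose by 0.63 (adjusted p = 0.000401), while Papss2 gave -0.03 (adjusted p = 0.922). None of 4 conjugate exporters passed, with Abcc3 at 0.37 (adjusted p = 0.109).

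Of 12 receptors and transcription factors, 1 passed. Stat5b, which relays growth hormone, rose by 0.34 (limma adjusted p = 0.0315). Nfe2l2, which encodes the antioxidant regulator NRF2, gave 0.15 (adjusted p = 0.354) with its brightest probe and -0.56 (adjusted p = 0.0105) with another, so its probes disagreed. None of 12 other conjugating and detoxifying enzymes passed, and among them the NRF2 target Nqo1 gave 0.04 (adjusted p = 0.923).

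**Figure D4:**
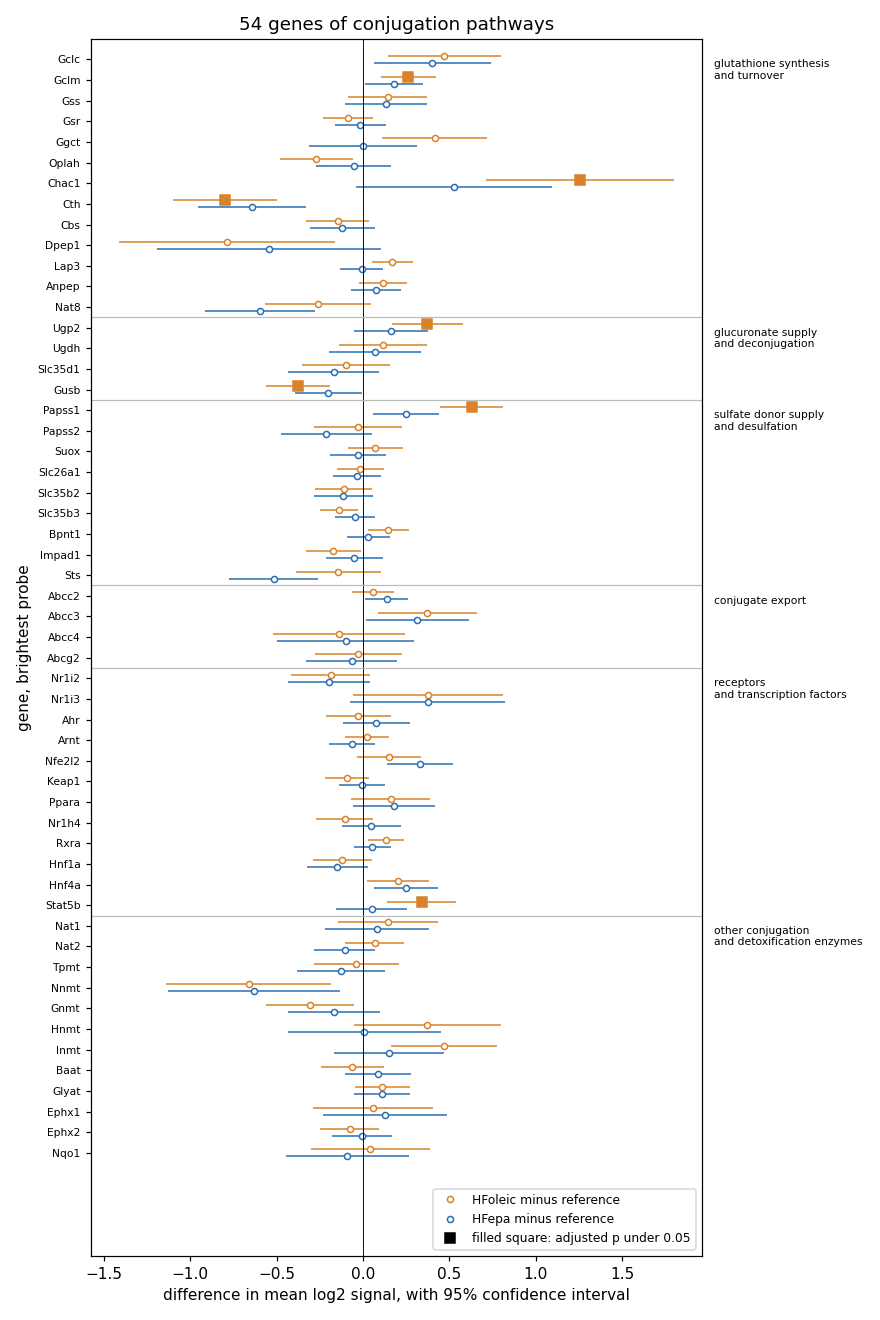
Difference in mean log2 signal from reference (horizontal axis, with 95% confidence interval) for 54 genes of 6 pathway lists (vertical axis, brightest probe), HFoleic in orange and HFepa in blue. The 7 filled squares are all HFoleic and include Chac1 at 1.26 and Cth at -0.80.

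Markers of other cell types were set beside these results. By brightest probe, the hepatocyte markers Cps1 and Tat were lower in HFoleic than in reference (2 of 8 called). Another probe of the hepatocyte marker Ttr was called higher there, by 0.53 (limma adjusted p = 0.00483). The summed signal of all 8 before normalization, on the log2 scale, ran from 19.9 to 20.4 in reference. It ran from 19.9 to 20.4 in HFoleic and from 19.9 to 20.3 in HFepa. None of 6 Kupffer cell or 6 blood markers was called, while 1 of 4 bile duct markers tested (Sox9), 1 of 4 adipocyte markers tested (Cidec) and 1 of 3 intestine markers tested (Lgals4) were, all in HFoleic against reference. Another Lgals4 probe was also called in that comparison, at -0.63 (limma adjusted p = 0.00123). The summed adipocyte markers ran from 11.8 to 14.2 in reference, 10.2 to 12.6 in HFoleic and 10.8 to 13.0 in HFepa, and the bile duct markers from 8.73 to 10.5, 8.59 to 8.96 and 8.76 to 9.33. The summed intestine markers ran from 15.5 to 17.2 in reference, 15.5 to 16.5 in HFoleic and 15.3 to 16.9 in HFepa. Of 7 exocrine pancreas markers, 4 were well above background on 24 of 24 arrays and Cpa1 on none. The summed pancreas markers ran from 12.3 to 13.5 in reference, 12.7 to 14.0 in HFoleic and 12.4 to 13.3 in HFepa, with none called. Of 5 kidney markers, 1 was well above background on 24 of 24 arrays and Kap on none. The part of other cells in the differences was not tested.

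The promoters of 47 of the 55 genes were matched by symbol in RefSeq (GRCm38.p6, 250 bases before to 50 after each start). The antioxidant response element core TGACNNNGC, searched on both strands, was in the promoters of Gsta3, Gstm5, Gstm7 and Mgst1, 4 of 58 member promoters (6.90%) against 12.4% of all 32851. The xenobiotic response element core GCGTG was in 17.2% of member promoters against 32.4% of all. Windows of 30 bases are shown for the 4 genes, in the gene's own direction, with the match in capitals. Counted from the start of the gene at 0, the match begins at -121 for Gsta3, -42 for Gstm5, -129 for Gstm7 and -56 for Mgst1, where it is on the opposite strand.
Gsta3 promoter: aactcaggcaTGACATTGCatttttcttct
Gstm5 promoter: caccgcccacTGACCACGCggagggcgggt
Gstm7 promoter: tctgaagaccTGACAAAGCgaagccaatcc
Mgst1 promoter: gcggggcttgGCACGGTCAggaggcggggt
Of these 4 genes only Gsta3 was called in HFoleic against reference. Gstm5 gave 0.08 (limma adjusted p = 0.709), Gstm7 -0.06 (adjusted p = 0.853) and Mgst1 -0.02 (adjusted p = 0.807).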

How the data were processed

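For each of 24 arrays the authors deposited scanner output (Agilent Feature Extraction 10.10.1.1, per the labels), in which spot signals are intensities before any normalization, with marks of 0 or 1 for outlier spots and for detection above background. A second deposited file, used here as an alternative, holds log2 signals that the authors had filtered and quantile normalized. It held 62 of the 79 probes. The submitters' notes name limma.

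Log2 median signals of a probe's spots were averaged without outlier spots. A probe was kept if detected above background in 75% or more of the mice of any group (30003 probes), and arrays were quantile normalized. A group-means model was fitted to all 24 arrays with limma 3.58.1 in R 4.3.3 (with the data.table package, version 1.17.8), with Benjamini-Hochberg adjustment over all kept probes and calls at an adjusted p under 0.05. Tables and figures used Python 3.11.15, pandas 2.3.3, numpy 2.4.6, scipy 1.17.1 and matplotlib 3.10.9. The scripts were tested on simulated data. The number of arrays limits the precision.

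The members and lists were chosen with earlier results of these data known. Of the lists, 1 gene is not reported here. A gene was read from its brightest kept probe. Named were genes with a called probe, the 5 of smallest p where under 5 were called, 15 classical genes and the brightest gene of each class. Replicates were separate mice. All arrays were scanned on 1 day, on 3 slides that each held all groups. Probe coordinates are those of the files (mm9). The reference gene list is of another build and gave names only. The alternatives were other filters, signals, scalings, blocks, tests and array weights, and leaving out each mouse.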

Additional observations from a re-analysis of the deposited data

Results flagged for a closer look

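Among 75 groups of 25 named genes, 6 had a highest or lowest mouse set apart by a gap that is large for the range of its group (Dixon's test), where chance flags about 1 group in 20. Of these, 5 were reference replicate 5. It was the highest reference mouse for Gstm1 (16.19) and Gstm3 (17.27) and the lowest for Sult2a8 (11.22), Ugt3a1 (12.86) and Ugt3a2 (13.31). The sixth was HFoleic replicate 3, the lowest of its group for Sult2a8 (15.54). The cause was not tested.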

How the results depend on the processing

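The number of members called in HFoleic against reference was 5 in the report, where 2170 of 30003 probes were called. It was 3 with the methods' t-test (1746 of 30003 probes) and 10 with array weights (2951 of 30003). When 1 mouse was left out it ran from 4 to 13, and the number over all probes from 1602 to 3097. The member count was 13 without reference replicate 8 (3097 of 30003 probes) and 8 without HFepa replicate 4 (2241 of 30003). The calls over all probes thus also rose without reference replicate 8 and with array weights, and the cause was not tested. Gstk1, Gstp1, Gstt1, Mgst3, Sult1c2, Ugt2b34, Ugt3a1 and a second Ugt1a6b probe joined the calls without reference replicate 8. In HFepa against reference the member count ran from 0 to 1. The 1 was the upstream Gsta3 probe without HFepa replicate 3 (256 of 30003 probes called) or reference replicate 8 (499 of 30003). In HFepa against HFoleic the member count was 0 under all alternatives run, with at most 68 of 30003 probes called (array weights). Of the called probes, the Gsta3 probes A_51_P503625 and A_55_P1961423 and the Ugt3a2 probe were called under all 12 alternatives and all 24 leave-outs. The shared-part Ugt1a probe was called under 9 of 12 (adjusted p up to 0.173) and the upstream Gsta3 probe under 9 of 12 (up to 0.102), and no difference changed sign. Same-numbered mice did not deviate together (correlations of -0.302 to 0.349 over 22 pairs). With the replicate number as a block 5 members were called (1747 of 30003 probes), as many members as without this pairing. Signal near background limits the 19 probes below the filter.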
